A study of Homo sapiens with 15 samples.

Results

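Replication-dependent histone genes were followed by RNA sequencing in HT1080, a long-established line of human fibrosarcoma cells. The genes are the rows of the deposited count table whose symbol starts with HIST1H, HIST2H, HIST3H or HIST4H, without the 13 whose symbol marks a pseudogene by ending in PS and a number. This gave 76 of the 60675 rows: 6 H1, 17 H2A, 23 H2B, 15 H3 and 15 H4 genes. Of the 76, 5 are still typed as pseudogenes by the GENCODE v29 annotation (HIST2H2BA, HIST2H2BB, HIST2H2BD, HIST2H3DP1 and HIST3H2BA).

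The 4 groups were cells whose own KDAC4 (gene HDAC4) carried H803A, cells whose KDAC4 carried H976Y, cells whose KDAC7 (gene HDAC7) carried H709A, and wild-type cells treated with TMP195 at 1 µM over 2 days. Both enzymes belong to the class IIa lysine deacetylases, the class that TMP195 inhibits. H803A and H709A are taken as the inactive forms and H976Y as the enhanced form that the series describes. The variant cells were untreated, so the TMP195 group differs from each of them in both genotype and drug. Untreated wild-type cells were not used here. The variants are single amino acid changes, so the transcript level of HDAC4 or HDAC7 does not check the labels. Count libraries numbered 3 for KDAC4 H803A, 4 for KDAC4 H976Y, 4 for KDAC7 H709A and 3 for TMP195. Whether replicates were separate clones or cultures is not in the labels, so p-values measure only how far these libraries spread, and part of that may be technical.

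Core histones H2A, H2B, H3 and H4 form the protein spool of the nucleosome, and linker histone H1 binds the DNA where it enters and leaves. The genes for their main forms lie in a large cluster on chromosome 6 and smaller ones on chromosome 1, are transcribed mostly in S phase under the coactivator NPAT, and have no introns in their short transcripts. Their messenger RNAs end in a conserved stem-loop in place of a poly(A) tail. The stem-loop binding protein SLBP and the U7 small nuclear ribonucleoprotein direct the cut that forms this end. Some members, among them HIST1H2BK, HIST1H2BD, HIST1H2AC and HIST1H1C, are also known to give longer polyadenylated transcripts. Ribosomal RNA was depleted from total RNA here, a preparation that keeps both kinds of transcript.

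Libraries held 6151417 to 24297525 counts, and 1 CPM (1 count per 1000000 counts of the TMM-scaled library) stood for 4.86 to 23.9 counts. The histone genes took 0.278 to 0.698% of all counts. Some libraries stood apart. KDAC4 H803A replicate 1 was closer to KDAC7 H709A replicate 4 than any other pair of the 14 libraries was to each other, with a spread of 2.15 times counting noise, against 32.3 to 264 times between replicates of KDAC4 H803A. KDAC4 H803A replicate 1 was also nearer to KDAC7 H709A replicates 2 and 3 (59.5 and 70.8 times) than to its own group. In turn, KDAC7 H709A replicate 1 was nearer to KDAC4 H803A replicates 2 and 3 (55.9 and 35.1 times) than to its own group (167 to 300 times). Whether KDAC4 H803A replicate 1 and KDAC7 H709A replicates 1 and 4 carry the right label was not tested. The values of both inactive groups, and the comparison between them, depend on it. Genes rich in GC stood lower than GC-poor genes in KDAC4 H803A replicate 1 (median difference -0.99 on the log2 scale) and higher in its replicates 2 and 3 (1.23 and 1.16). KDAC7 H709A replicate 1 stood at 1.06 and its other replicates at -1.01 to -0.44. Results are therefore also given without KDAC4 H803A replicate 1 and KDAC7 H709A replicates 1 and 4, called the 3 libraries that stand apart. They were chosen from these same data, and the inactive-enzyme libraries left lie close within each group (32.3 and 15.9 times counting noise). More calls and kept calls without them are therefore no independent check. The GC difference then separates KDAC4 H803A (1.23 and 1.16) from KDAC7 H709A (-0.44 and -0.86) and KDAC4 H976Y (-0.47 to -0.26). There, GC and group cannot be told apart. The TMP195 libraries stood at 0.31, 0.41 and 0.48, above all KDAC4 H976Y libraries. Between TMP195 and KDAC4 H976Y, GC and group cannot be told apart either. Mitochondrial ribosomal RNA took 16.1 to 31.5% of counts in KDAC4 H976Y and at most 0.345% elsewhere, and small nucleolar RNA 0.722 to 0.913% against at most 0.101%. Every KDAC4 H976Y library differed from the rest in this way. In comparisons with KDAC4 H976Y, the variant and whatever changed these RNAs therefore cannot be told apart. Within KDAC4 H976Y, replicate 4 held the 31.5% of mitochondrial ribosomal RNA, and the other replicates at most 17.2%. Replicate 4 lay 50.1 to 62.4 times counting noise from them, while they lay 2.91 to 5.10 times from each other. The mesenchymal marker VIM was at 2690 to 5636 CPM in every library, while PTPRC of blood cells was at 0 and EPCAM of epithelia at no more than 0.0965 CPM. The 5 mesenchymal markers summed to 3684 to 9237 CPM. The epithelial, blood, endothelial and neural lists summed to at most 12.9, 3.91, 3.82 and 13.4 CPM. In bulk samples, fewer cells in S phase and less histone RNA per cell cannot be told apart.

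The stem-loop was found in an annotated transcript of 33 of the 75 members that have one in GENCODE v29, on 47 transcripts. Many of the other models hold coding sequence only. The form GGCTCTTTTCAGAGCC was found in 18 genes. An H3, 2 H4 and an H2B gene of the results below are shown as examples of how the stem and loop vary. Capitals mark the stem-loop, with 5 bases of transcript on either side.
HIST1H3H: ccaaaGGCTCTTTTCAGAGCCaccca
HIST1H4J: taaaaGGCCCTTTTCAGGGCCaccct
HIST2H4A: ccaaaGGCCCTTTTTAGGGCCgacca
HIST1H2BD: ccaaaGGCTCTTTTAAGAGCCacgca

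Promoters from RefSeq (GRCh38.p14, 250 bases before to 50 after the start) were matched for 65 members, and 4 motifs were searched on both strands. The octamer ATTTGCAT, the site of the OCT1 factor POU2F1, was present in 14 of 18 H2B and 11 of 16 H2A windows, in 1 of 12 H3, in 0 of 6 H1 and in 0 of 13 H4 windows, against 1.77% of 35116 promoters. The H3 window with the octamer, of HIST1H3D, is the same stretch as the window of HIST1H2AD, so that stretch counts under both types. CCAAT was present in 55 of 65 windows (34.6% of promoters), and all H1, H2A, H2B and H3 windows held it, against 3 of 13 H4 windows. TATAAA was present in 43 of 65 (11.5% of promoters). GGTCCG, the core of the H4 element bound by HINFP, was present in 12 of 13 H4 windows and 3 of the other windows (11.3% of promoters). A match of letters is a description, not a bound site. The last 150 bases of the window are shown for 3 pairs of the same type, in each of which the first gene had counts in all libraries and the second had 0 counts in all 14. Capitals mark the motifs, in either direction.
HIST1H2BK, chr6:27146859-27147008, minus strand: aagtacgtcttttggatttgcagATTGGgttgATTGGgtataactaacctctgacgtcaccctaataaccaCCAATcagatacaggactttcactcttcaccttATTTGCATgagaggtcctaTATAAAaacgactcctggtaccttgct
HIST1H2BI, chr6:26272781-26272930, plus strand: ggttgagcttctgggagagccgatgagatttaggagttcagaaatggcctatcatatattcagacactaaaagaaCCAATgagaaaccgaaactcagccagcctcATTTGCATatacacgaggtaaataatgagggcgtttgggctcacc
HIST1H4J, chr6:27823942-27824091, plus strand: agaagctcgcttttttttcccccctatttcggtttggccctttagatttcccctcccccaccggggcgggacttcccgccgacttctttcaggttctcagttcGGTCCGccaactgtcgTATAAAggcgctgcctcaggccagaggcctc
HIST1H4K, chr6:27831561-27831710, minus strand: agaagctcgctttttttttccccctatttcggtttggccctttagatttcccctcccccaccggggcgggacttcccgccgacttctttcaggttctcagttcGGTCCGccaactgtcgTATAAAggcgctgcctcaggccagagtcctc
HIST1H1E, chr6:26156179-26156328, plus strand: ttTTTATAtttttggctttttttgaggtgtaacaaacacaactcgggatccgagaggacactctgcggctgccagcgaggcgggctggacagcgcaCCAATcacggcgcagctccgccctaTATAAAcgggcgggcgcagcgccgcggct
HIST1H1D, chr6:26234988-26235137, minus strand: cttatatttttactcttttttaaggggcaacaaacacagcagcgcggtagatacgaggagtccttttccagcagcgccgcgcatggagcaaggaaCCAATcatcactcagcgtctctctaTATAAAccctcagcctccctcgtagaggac
HIST1H2BI held the octamer and CCAAT as HIST1H2BK did, but not TATAAA, which HIST1H2BK held. HIST1H1D held CCAAT and TATAAA as HIST1H1E did. Among H2B windows the octamer was in 10 of 14 tested and in 4 of 4 untested members. The HIST1H4J and HIST1H4K windows differed at 2 of these 150 bases. All stretches of 75 bases in the HIST1H4K transcript also occur in HIST1H4J. The counts of these 2 genes therefore do not show that 1 is expressed and the other silent.

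Not every histone gene gave reads. Counts were above 0 in all 14 libraries for 46 members, and 49 members passed the filter on low counts and were tested: 2 H1, 13 H2A, 17 H2B, 7 H3 and 10 H4. The 27 untested members comprise 14 with 0 counts in every library, 10 with 1 to 10 counts over all libraries, and HIST1H1A, HIST1H1T and HIST3H2BA with 25, 39 and 28.0 counts. A total of 0 over the 14 libraries allows up to 3 counts, or 0.0172 CPM, for counting error only. HIST1H1T, HIST1H1A, HIST1H2AA and HIST1H2BA are members known from testis, and none of them was tested. Reads can be shared between near-identical copies, so shared stretches of 75 bases were counted. Of the 14 members at 0, 11 shared no such stretch with another histone transcript. HIST1H4K shared all of its stretches with HIST1H4J, so its 0 says nothing about its own transcription.

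Many of the untested genes lay next to each other. Along chromosome 6, which holds 55 members and 22 of the untested, HIST1H3E, HIST1H1D, HIST1H4F, HIST1H4G, HIST1H3F, HIST1H2BH, HIST1H3G and HIST1H2BI formed a run of 8 (chr6:26224199-26273356, 49.2 kb) with 11 counts in all 14 libraries together and 6 genes at 0. The run was bordered by HIST1H2AE at a mean of 44.6 CPM and HIST1H4H at 103 CPM. A second run of 7 closed the cluster (chr6:27865355-27893843, 28.5 kb): HIST1H2AL, HIST1H1B, HIST1H3I, HIST1H4L, HIST1H3J, HIST1H2AM and HIST1H2BO had 2 counts in all and 5 were at 0. Another run of 3 opened it, HIST1H2AA, HIST1H2BA and HIST1H1A, with 31 counts over 291.6 kb, before HIST1H3A at 18.2 CPM. The runs mix linker and core histone types. HIST1H2AD, at 0, and HIST1H4D, at 4 counts, lay apart between expressed genes.

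**Figure D1:**
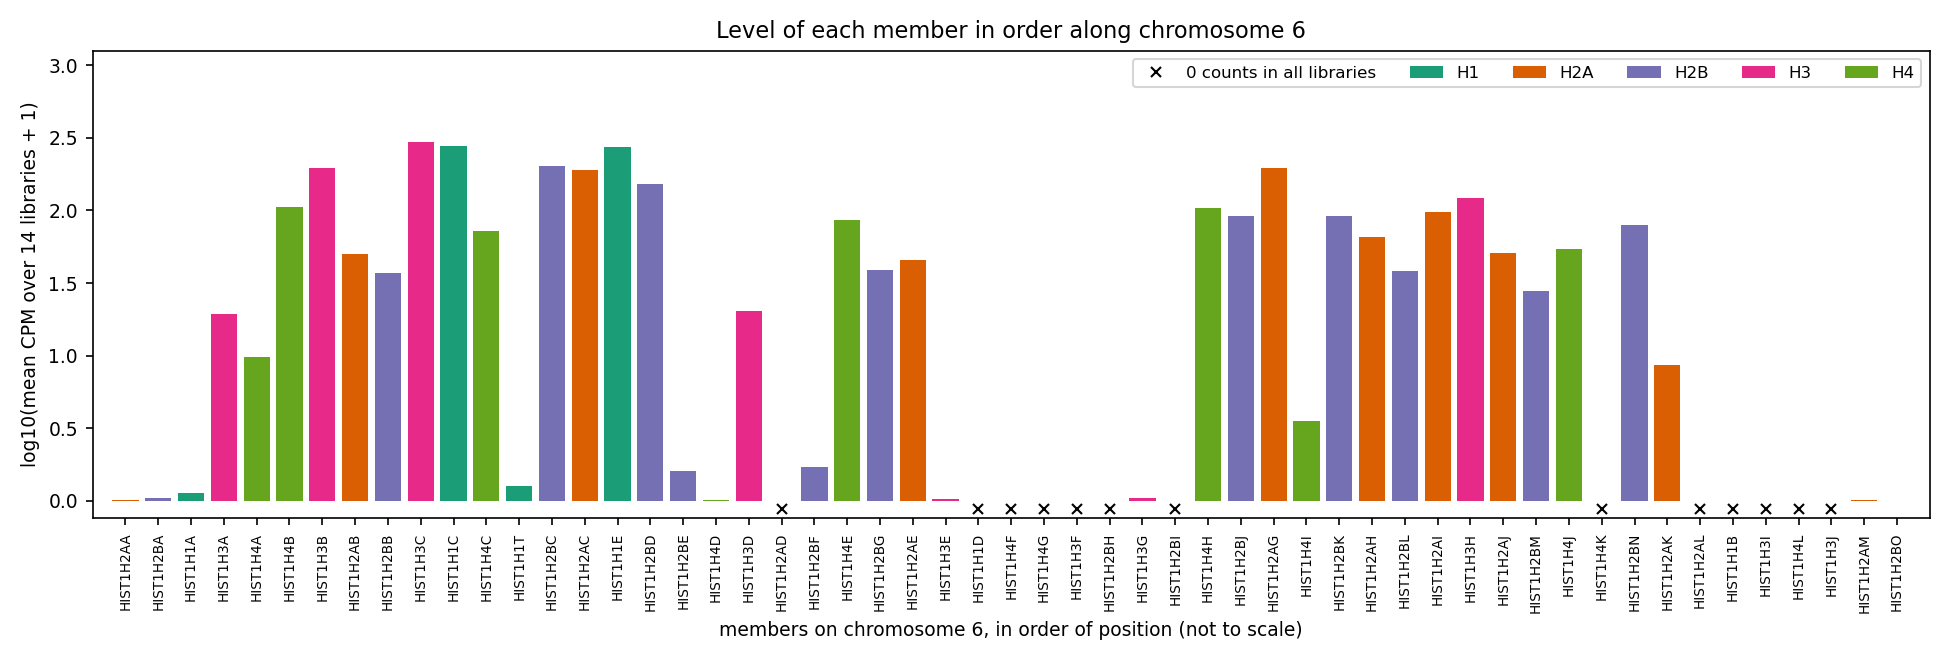
Mean CPM over 14 libraries, on a log10(CPM + 1) axis, of the 55 members on chromosome 6 in order of position, coloured by type, with crosses at members with 0 counts. The runs of 8 and of 7 untested members stand between and after members that had counts.

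Per kilobase of effective length, the H3 gene HIST1H3C stood highest of all members at 1789 CPM per kb, followed by the H2A gene HIST2H2AA4 at 1194 and the H3 gene HIST1H3B at 1181. The next H3 genes were the identical copies HIST2H3A and HIST2H3C, at 137 each. H1 came from HIST1H1C at 699 and HIST1H1E at 541 CPM per kb, with HIST1H1T next at 0.573. Behind HIST2H2AA4 the H2A genes HIST2H2AA3 and HIST2H2AC stood at 700.3 and 541. H2B was spread more evenly, with HIST1H2BK at 663, HIST1H2BC at 621 and HIST1H2BD at 593. The leading H4 genes were HIST2H4A at 814, HIST1H4H at 548 and HIST1H4B at 542. With annotated transcript length in place of effective length, HIST1H2BC ranked first among H2B genes (326 against 239 for HIST1H2BK) and HIST1H4H ranked below HIST1H4B in H4. Effective lengths of these short transcripts are small, so the per-length levels are sensitive to that choice.

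Summed over each type, H1 stood apart in KDAC4 H976Y. Its 6 genes gave 805, 895, 849.6 and 643 CPM there, 505, 402 and 365 in KDAC4 H803A, 399.6, 341, 315 and 526 in KDAC7 H709A and 529, 594 and 516 in TMP195. Every KDAC4 H976Y library lay above all 10 others, with group means of 798 ± 109.8 (SD, n = 4) against 424 ± 72.9 (n = 3), 395 ± 93.9 (n = 4) and 546 ± 41.9 (n = 3). H1 also took the largest share of the histone counts there, 16.03 to 18.2% against 6.74 to 10.7% in the other libraries. Against TMP195 this gap came from HIST1H1E, since HIST1H1C stood at 329.5 to 386 CPM in TMP195, within its KDAC4 H976Y range of 269 to 424. Sums are descriptions and carry no test.

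The makeup of the histone counts also set KDAC4 H976Y apart, with more H2B and less H3 and H2A. H2B took 23.7 to 24.7% of histone counts in KDAC4 H976Y, 11.5 to 18.2% in KDAC4 H803A, 14.9 to 19.2% in KDAC7 H709A and 18.1 to 22.6% in TMP195. H3 took 15.6 to 16.8% in KDAC4 H976Y against 21.1 to 29.5% in the other 10 libraries, and H2A 24.6 to 25.9% against 30.1 to 36.5%. The groups did not overlap in any of these shares between KDAC4 H976Y and the rest. Summed H3 was 785 ± 137 CPM (SD) in KDAC4 H976Y, 1052 ± 55.9 in KDAC4 H803A, 1055 ± 75.8 in KDAC7 H709A and 1327 ± 139.6 in TMP195, whose 3 libraries (1357, 1449 and 1175) lay above all others. H4 sums were 866 ± 192, 636 ± 103, 644 ± 135 and 956 ± 112 CPM in the same order. Both in H4 and in the total of all 76 genes, the TMP195 libraries lay above those of both inactive enzymes and overlapped with KDAC4 H976Y. The total was 4841 ± 909, 4067 ± 647, 4315 ± 556 and 5792 ± 711 CPM. As a share of unscaled counts, TMP195 (0.581 to 0.698%) lay above the other groups (0.278 to 0.510%). For KDAC4 H976Y those unscaled counts include 16.1 to 31.5% of mitochondrial ribosomal RNA. Scaled without mitochondrial, ribosomal and small RNA rows, the totals of TMP195 (6185 to 7727 CPM) and KDAC4 H976Y (4641 to 6807 CPM) overlapped.

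**Figure D2:**
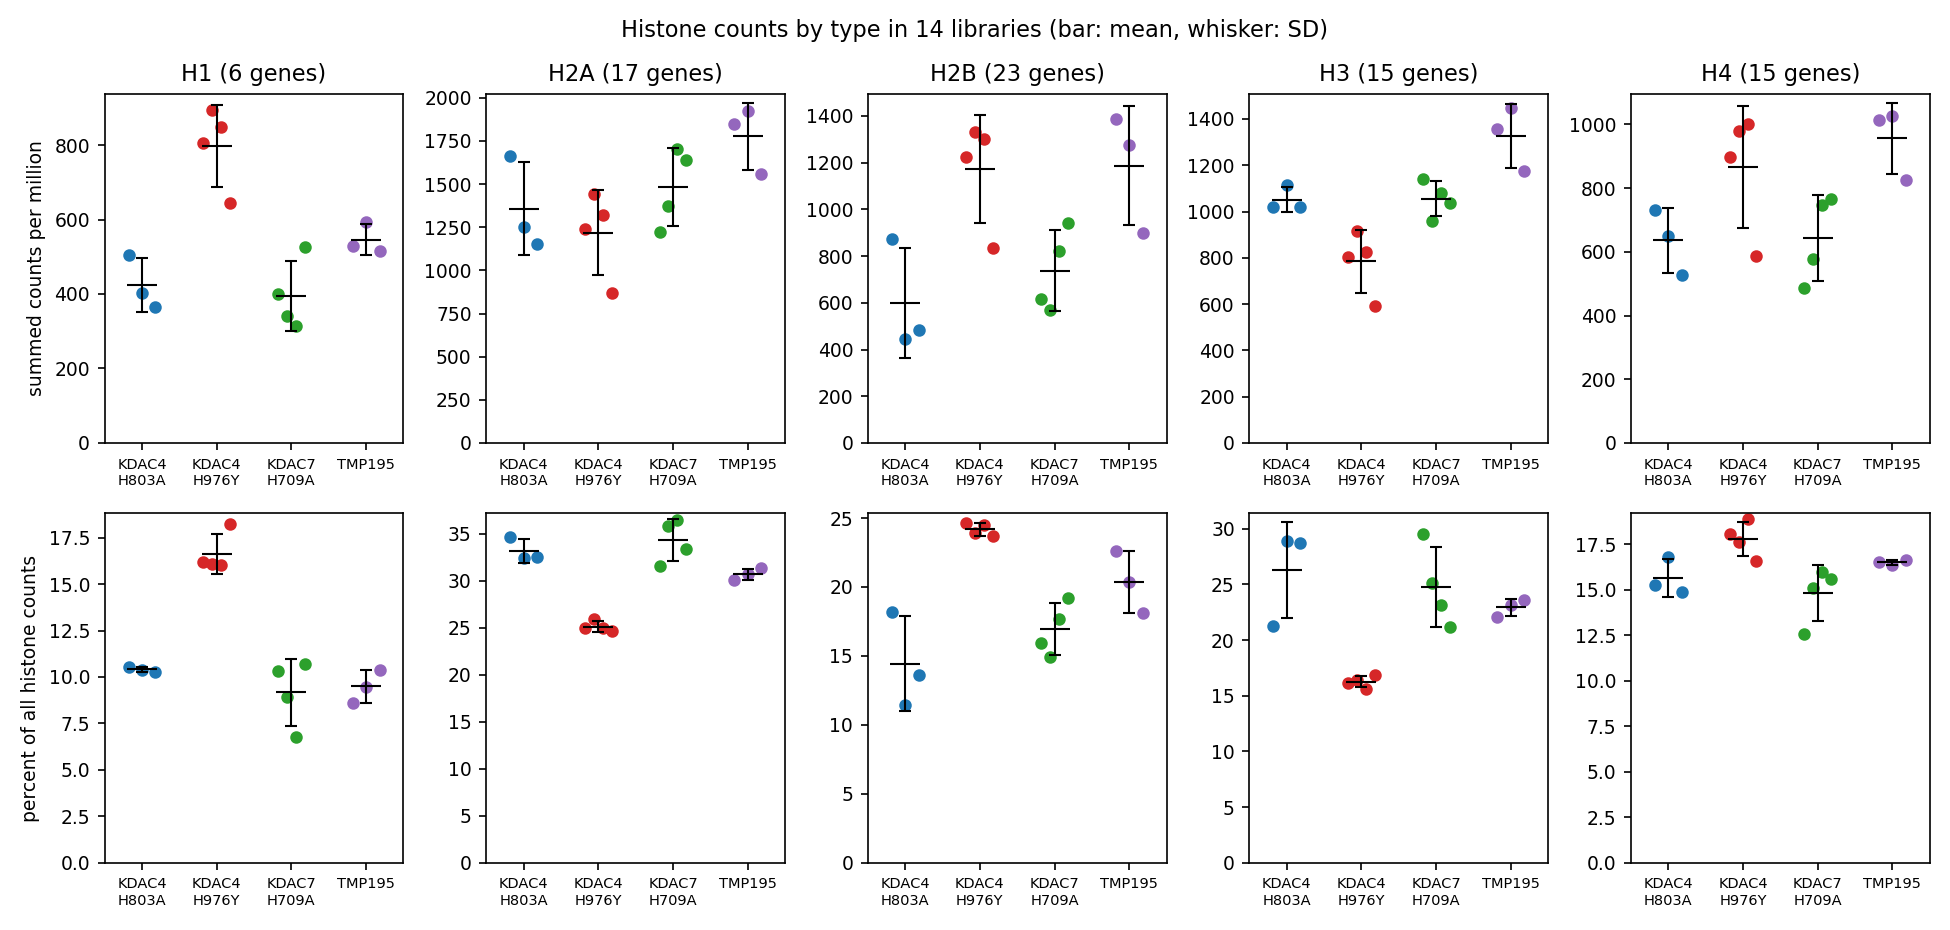
Summed CPM (top) and percent of all histone counts (bottom) of each type in the 14 libraries by group, with points for libraries, bars for means and whiskers for SD. H1 is highest in all 4 KDAC4 H976Y libraries (643 to 895 CPM), which also hold the lowest H3 and H2A shares.

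Inactive and enhanced KDAC4 were compared first, KDAC4 H803A against KDAC4 H976Y. Both tested linker histone genes and 8 of 17 H2B genes were lower in the inactive form. Of the others, 2 H2A genes, 1 H3 and 1 H2B gene were higher, and H4 genes were called in both directions. Of 49 tested members 17 were called at an adjusted p under 0.05 (edgeR, Benjamini-Hochberg over all genes), 5 higher and 12 lower, against 15.1% of the 17780 genes tested (9.21% higher and 5.85% lower). By type the calls were 2 lower of 2 in H1, 2 higher of 13 in H2A, 1 higher and 8 lower of 17 in H2B, 1 higher of 7 in H3, and 1 higher and 2 lower of 10 in H4. The median log2 fold change was -0.18 over members and 0.09 over all genes, and -0.97 over H2B. Groups did not overlap for 7 members higher and 12 lower, against 23.1% of all genes (12.1% higher and 11% lower). Leaving out 1 library took the count to 8 without KDAC4 H803A replicate 2, 7 without its replicate 3, and 9, 8 and 8 without KDAC4 H976Y replicates 1, 2 and 3. Without the 3 libraries that stand apart it was 31, 8 higher and 23 lower, and all 17 were among them. With offsets for GC content and length it was 12, 3 higher and 9 lower, and the median over members was -0.36.

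Both tested linker histone genes were lower with KDAC4 H803A. HIST1H1E (ENSG00000168298, chr6:26156354-26157107, plus strand), which encodes H1.4, gave 259.6, 213 and 207 CPM against 436, 471, 436 and 374 in KDAC4 H976Y, with 233, 172, 164 and 274 in KDAC7 H709A and 194, 208 and 186 in TMP195. All 4 KDAC4 H976Y libraries lay above all 10 others (log2 fold change -0.92, SE 0.20, adjusted p = 0.00964). HIST1H1C (ENSG00000187837, chr6:26055787-26056428, minus strand), which encodes H1.2, gave 245, 188 and 157 CPM against 368, 424, 413 and 269, with 166, 169, 151 and 252 in KDAC7 H709A and 334, 386 and 329.5 in TMP195. The KDAC4 groups did not overlap (log2 fold change -0.91, SE 0.23, adjusted p = 0.0219). With offsets for GC content and length in the fit, HIST1H1E was still called and HIST1H1C was not.

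Among H2B genes, HIST1H2BK (ENSG00000197903, chr6:27146418-27146798) had the lowest adjusted p of the members in this comparison. It gave 48.5, 44.4 and 40.1 CPM in KDAC4 H803A and 41.6, 25.5, 32.8 and 51.1 in KDAC7 H709A, against 155, 174, 173 and 111 in KDAC4 H976Y and 149, 136 and 93.1 in TMP195. All 7 libraries of inactive enzymes lay below all 7 others (log2 fold change -1.79, SE 0.27, adjusted p = 0.0012). HIST3H2BB (ENSG00000196890, chr1:228458107-228460470), an H2B gene of the small chromosome 1 cluster, gave 14.8, 18.9 and 21.1 CPM against 52.8, 62.4, 59.3 and 34.6 without overlap (log2 fold change -1.52, SE 0.29, adjusted p = 0.00515). HIST2H2BB (ENSG00000240929, chr1:143875171-143904650), typed as a pseudogene, gave 1.58, 1.74 and 4.06 against 13.5, 9.15, 12.1 and 14.8 CPM (log2 fold change -2.34, SE 0.46, adjusted p = 0.00545). Its level is low and 53.8% of its stretches of 75 bases occur in other histone transcripts, most of them in HIST2H2BF, so its reads may be shared. HIST2H2BE (ENSG00000184678, chr1:149884459-149886652), whose long transcript is known to be polyadenylated, gave 125, 77.5 and 83.3 against 191, 210.0, 193 and 149 CPM (log2 fold change -0.97, SE 0.26, adjusted p = 0.0249). The other lower H2B genes were HIST1H2BB (log2 -2.01), HIST1H2BG (-1.43), HIST1H2BM (-1.14) and HIST2H2BF (-1.21), with adjusted p from 0.016 to 0.0212. HIST2H2BC was the 1 H2B gene called higher (4.68, adjusted p = 0.0283), from 0 in 3 KDAC4 H976Y libraries to 2.28, 6.59 and 19.4 CPM, and it has no entry in the annotation used. With offsets for GC content and length, HIST1H2BB and HIST1H2BM were no longer called, and the other lower H2B genes were. HIST2H2BC has no GC content or length in the annotation, so the offsets do not check its call.

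The H2A and H3 genes that were higher with KDAC4 H803A were HIST1H3C, HIST2H2AC and HIST1H2AJ, with GC contents of 59.9, 62.8 and 62.5%. HIST1H3C (ENSG00000278272, chr6:26045411-26045821), the highest H3 gene per length, gave 388, 346 and 341 CPM against 179.8, 205, 188 and 127 in KDAC4 H976Y, with 386, 298, 281 and 397 in KDAC7 H709A and 341, 359.5 and 311 in TMP195. All 4 KDAC4 H976Y libraries lay below all 10 others (log2 fold change 1.03, SE 0.19, adjusted p = 0.00407). HIST2H2AC (ENSG00000184260, chr1:149886975-149887364), an H2A gene, gave 74.4, 97.9 and 94.96 against 46.7, 55.7, 43.2 and 33.2 CPM, again with KDAC4 H976Y below all others (log2 fold change 0.99, SE 0.20, adjusted p = 0.00654). HIST1H2AJ gave 56.0, 32.4 and 38.6 against 21.7, 31.2, 26.0 and 18.1 CPM (log2 fold change 0.80, SE 0.23, adjusted p = 0.0334). None of these 3 was called with offsets for GC content and length. Of the 75-base stretches of HIST1H2AJ, 82.4% occur in HIST1H2AI, so reads may be shared between them in every comparison. HIST1H2AI was not called against KDAC4 H976Y, with log2 fold changes of -0.48 for KDAC4 H803A and -0.01 for KDAC7 H709A.

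For H4, HIST2H4A (ENSG00000270882, chr1:149832659-149839767) gave 240.4, 247 and 194 CPM against 434, 467, 474 and 289.6 (log2 fold change -0.87, SE 0.22, adjusted p = 0.0201). Its span overlaps HIST2H3C on the other strand, and the strand setting of the counting is not given in the sources used here, so the reads of the overlapping stretch cannot be told apart. HIST1H4J gave 53.5, 26.1 and 19.5 against 78.4, 82.4, 83.1 and 49.4 CPM (-1.15, adjusted p = 0.0364), and its reads cannot be told from those of HIST1H4K. HIST1H4I was low and higher in the inactive form, at 2.34, 5.91 and 7.35 against 0.985, 0.638, 0.541 and 1.24 CPM (log2 fold change 2.63, SE 0.49, adjusted p = 0.00434). Its groups did not overlap. With GC and length offsets HIST2H4A and HIST1H4I were called and HIST1H4J was not.

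**Figure D3:**
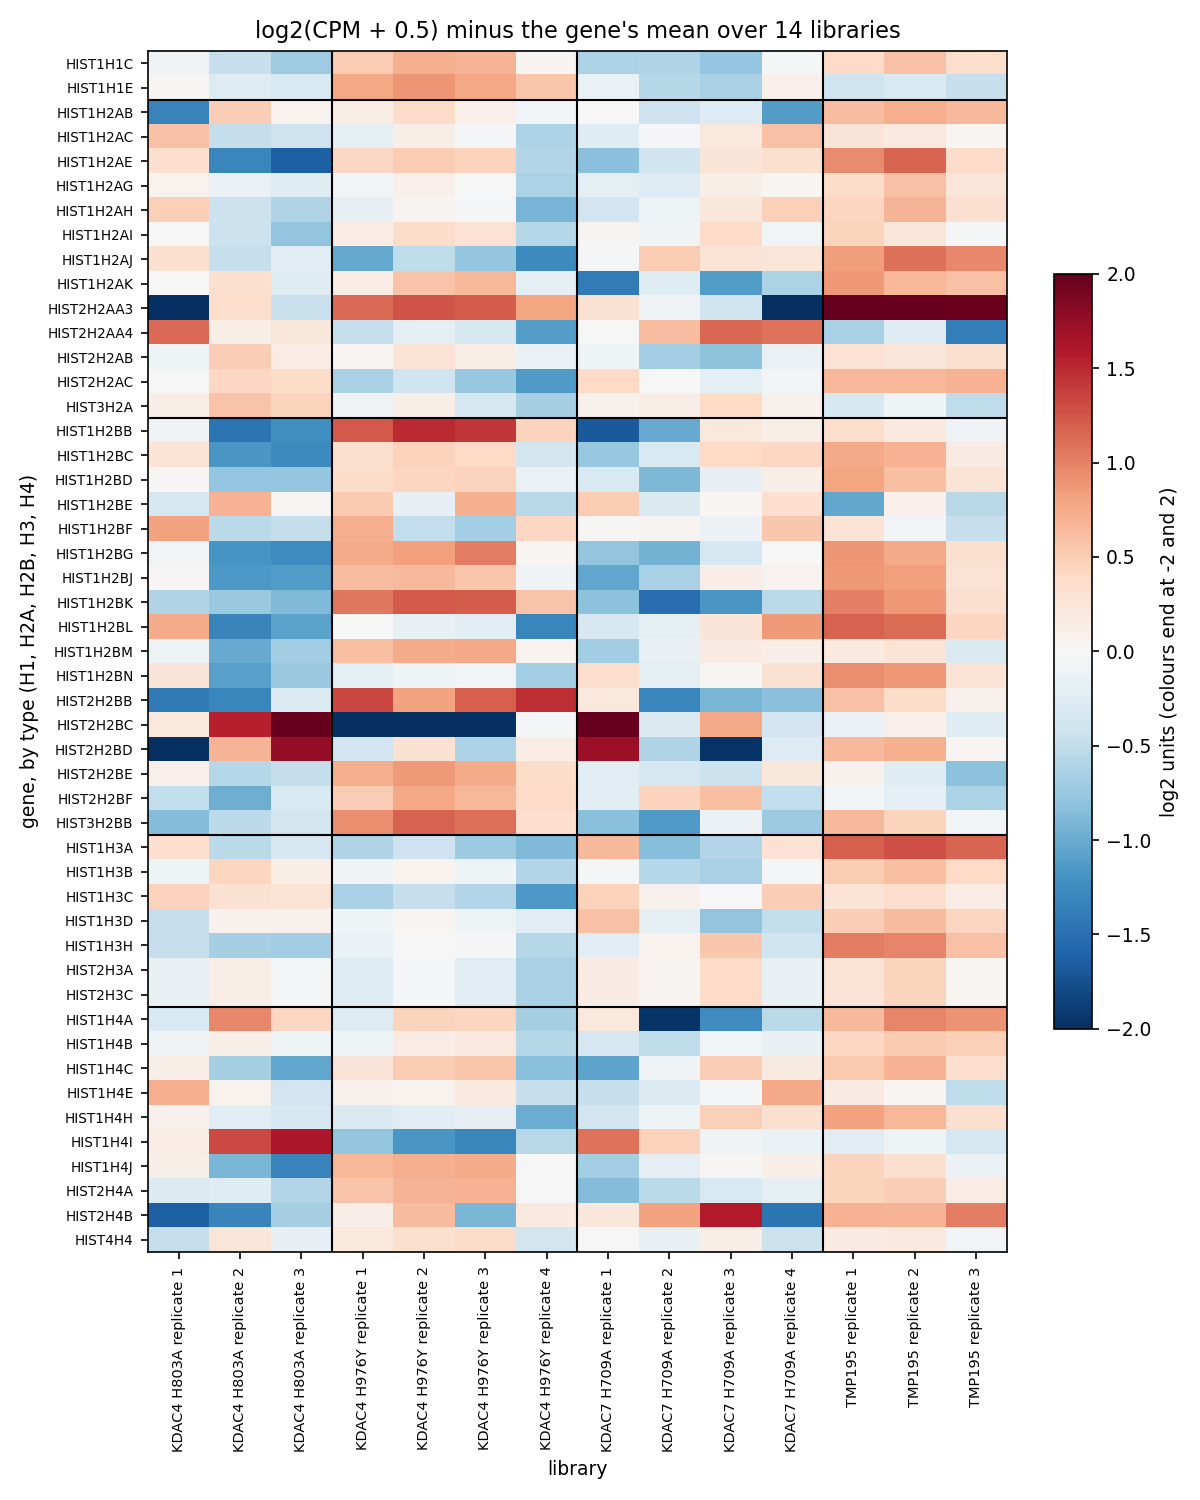
Level of the 49 tested members in the 14 libraries, as log2(CPM + 0.5) minus the mean of the gene over all libraries, with colours ending at -2 and 2. The rows of both H1 genes and of the 8 H2B genes called lower in KDAC4 H803A are above their mean in the 4 KDAC4 H976Y columns, where HIST1H3C, HIST2H2AC and HIST1H2AJ are below it.

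KDAC7 H709A was next set against KDAC4 H976Y, 2 enzymes and 2 kinds of change at once. This comparison shares the KDAC4 H976Y libraries with the one above, so their results are not independent and are only placed side by side. Of 49 members 15 were called, 5 higher and 10 lower, against 12.5% of all genes (7.28% higher and 5.19% lower). Groups did not overlap for 5 members higher and 11 lower, against 20.1% of all genes (11.2% higher and 8.95% lower). The 10 lower were 2 H1, 1 H2A, 6 H2B and 1 H4 gene, and the 5 higher were 3 H2A, 1 H3 and 1 H4 gene. The median was -0.15 over members, against 0.09 over all genes. The count was 9 without KDAC4 H976Y replicate 2 and 9 without its replicate 3. It was 27 without the 3 libraries that stand apart, all 15 among them, and 7 with GC and length offsets, of which 6 were among the 15. The median over members was then -0.02.

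HIST1H2BK was lower with KDAC7 H709A as well (log2 fold change -2.02, SE 0.24, adjusted p = 0.000236), though it was not called with GC and length offsets. HIST3H2BB gave 15.1, 12.2, 25.3 and 16.3 CPM (log2 fold change -1.60, SE 0.27, adjusted p = 0.00193), below every KDAC4 H976Y library, and was called with those offsets. HIST1H1E and HIST1H1C had log2 fold changes of -1.03, adjusted p = 0.00283 and -1.0, adjusted p = 0.00864. Their KDAC7 H709A libraries all lay below KDAC4 H976Y, though neither was called with GC and length offsets. HIST2H4A (-0.97, adjusted p = 0.00741), HIST2H2BB (-1.97, adjusted p = 0.00635), HIST1H2BG (-1.19, adjusted p = 0.027) and HIST2H2BE (-0.85, adjusted p = 0.0301) were lower and were called with those offsets too. HIST1H2BB was lower (-1.61, adjusted p = 0.0262), as was HIST1H2AK (-1.21, adjusted p = 0.0202). HIST1H2AK lies inside the span of HIST1H2BN on the other strand, which leaves the source of its few reads uncertain.

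The members higher with KDAC7 H709A were HIST1H3C (log2 fold change 0.96, SE 0.18, adjusted p = 0.00393), HIST1H2AJ (log2 fold change 1.14, SE 0.22, adjusted p = 0.00406), HIST2H2AC (log2 fold change 0.77, SE 0.19, adjusted p = 0.0169), HIST1H4I (1.81, adjusted p = 0.0235) and HIST2H2AA4 (1.26, adjusted p = 0.0262). HIST1H2AJ gave 44.1, 63.6, 54.3 and 52.7 CPM, all above KDAC4 H976Y. Of the 5, HIST1H4I was still called with GC and length offsets.

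The inactive enzymes were then compared with each other, KDAC7 H709A against KDAC4 H803A. edgeR called 0 of 49 members, against 0% of all genes, and DESeq2 called 0. At an unadjusted p under 0.05 there were 7, a count that was not made over all genes. Groups did not overlap for 1 member higher, HIST1H3H (95.6, 117, 164 and 84.7 against 81.7, 70.5 and 69.0 CPM), and for 1 lower, HIST2H2AB (37.8, 24.9, 22.9 and 36.9 against 37.9, 57.1 and 44.6 CPM), against 2.01% of all genes (1.12% higher and 0.889% lower). HIST2H2AB was named after its values were seen. The median was 0.14 over members and 0.02 over all genes. Without KDAC4 H803A replicate 1, 7 members were called. Without the 3 libraries that stand apart 25 were called, 16 higher and 9 lower, from 2 libraries a group. The share of all genes called in that setting was not worked out, so the 25 cannot be read as particular to histone genes. A p that misses the threshold does not show that the groups are alike.

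TMP195 in wild-type cells was set against each variant group, and these 3 comparisons share the TMP195 libraries. Against KDAC4 H803A, 5 of 49 members were called higher and 0 lower, against 5.34% of all genes (1.56% higher and 3.78% lower). Groups did not overlap for 24 members higher and 4 lower, against 24.3% of all genes (12.8% higher and 11.4% lower). The median over members was 0.61 and over all genes -0.11, and 38 of 49 members were positive. HIST1H3H (ENSG00000278828, chr6:27810064-27811300), an H3 gene, gave 229.5, 221 and 169 CPM against 81.7, 70.5 and 69.0, and 102, 112, 109 and 75.2 in KDAC4 H976Y. All 3 TMP195 libraries lay above all 11 others (log2 fold change 1.48, SE 0.25, adjusted p = 0.0034). HIST1H3A (ENSG00000275714, chr6:26020490-26020900), the H3 gene nearest the start of the cluster, gave 36.3, 38.8 and 35.4 CPM against 19.8, 10.6 and 12.2, also above all 11 others (log2 fold change 1.37, SE 0.37, adjusted p = 0.0466). HIST1H2BK (1.51, adjusted p = 0.00545), HIST1H2AJ (1.05, adjusted p = 0.0238) and HIST1H2BG (1.41, adjusted p = 0.0426) were the other 3.

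The count of 5 was 17 without KDAC4 H803A replicate 1 and 12 without KDAC7 H709A replicate 1. It was 2 without KDAC4 H803A replicate 2 or any 1 TMP195 library, and 3 without KDAC4 H803A replicate 3 or KDAC4 H976Y replicate 1, 2 or 3. Without the 3 libraries that stand apart it was 31, 27 higher and 4 lower. DESeq2 called 17, 14 higher and 3 lower. HIST1H3H and HIST1H2BG were called with GC and length offsets, and the median over members was then 0.39.

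Against KDAC4 H976Y, 9 members were called with TMP195, 7 higher and 2 lower, against 16.5% of all genes (7.96% higher and 8.55% lower). Groups did not overlap for 20 members higher and 5 lower, against 53.8% of all genes (27.2% higher and 26.6% lower). All 7 tested H3 members, of which HIST2H3A and HIST2H3C have identical values, were higher without overlap, and 3 of them were called: HIST1H3A (log2 fold change 1.91, SE 0.34, adjusted p = 0.00266), HIST1H3C (log2 fold change 0.95, SE 0.19, adjusted p = 0.00542) and HIST1H3H (log2 fold change 1.05, SE 0.23, adjusted p = 0.00844). Of H2A genes, HIST1H2AJ gave 80.3, 96.0 and 87.5 CPM against 21.7, 31.2, 26.0 and 18.1 (log2 fold change 1.86, SE 0.23, adjusted p = 0.000215). HIST2H2AC gave 117, 116 and 119 CPM (log2 fold change 1.39, SE 0.20, adjusted p = 0.000655), the highest group for that gene. HIST1H4H (0.99, adjusted p = 0.0171) and HIST1H2BN (0.95, adjusted p = 0.0439) were higher. HIST1H1E was lower, with all 3 TMP195 libraries below all KDAC4 H976Y libraries (log2 fold change -1.13, SE 0.20, adjusted p = 0.00249), and so was HIST2H2BE (-0.97, adjusted p = 0.0219). HIST1H2BK, lower with both inactive enzymes, was not called here (-0.28, adjusted p = 0.458). The count was 14 without KDAC4 H803A replicate 1, 26 without the 3 libraries that stand apart, 16 with DESeq2 and 27 with only the 2 groups in the fit. With GC and length offsets the balance of directions turned, with 3 higher and 4 lower, and H2B gave 0 higher and 3 lower. The H3 median went from 0.65 to 0.24 with the offsets, and 1 of 7 H3 genes was then called. Of the 9, HIST1H1E, HIST1H3H, HIST1H4H and HIST2H2BE were still called. The median over members was 0.32, and 0.15 with the offsets.

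Against KDAC7 H709A, 10 members were called with TMP195, 9 higher and 1 lower, against 6.29% of all genes (1.99% higher and 4.31% lower). Groups did not overlap for 20 members higher and 2 lower, against 24.3% of all genes (12.4% higher and 11.8% lower). HIST1H2BK had the lowest adjusted p (log2 fold change 1.74, SE 0.25, adjusted p = 0.000915), with all TMP195 libraries above all KDAC7 H709A libraries. The others higher were HIST1H2AK (log2 1.60), HIST1H3A (1.24), HIST3H2BB (1.05), HIST1H1C (0.92), HIST1H3H (0.84), HIST2H4A (0.83), HIST1H3B (0.80) and HIST1H4B (0.73), with adjusted p from 0.00987 to 0.0462. HIST2H2AA4 was lower (-1.47, adjusted p = 0.0343). The median was 0.55 over members and -0.07 over all genes. With GC and length offsets it was 0.13 over members and -0.04 over all genes. By type it went from 0.57 to 0.17 in H2B, 0.67 to 0.12 in H3, 0.44 to 0.06 in H4 and 0.41 to 0.06 in H1, and in H2A it changed sign, from 0.62 to -0.12. The count was 19 without KDAC4 H803A replicate 1 and 16 without KDAC7 H709A replicate 1. It was 4 without KDAC4 H803A replicate 3, 5 without KDAC7 H709A replicate 3 or 4, 2 without KDAC4 H976Y replicate 1, 2 or 3, KDAC7 H709A replicate 2 or TMP195 replicate 2 or 3, and 1 without TMP195 replicate 1. It was 27 without the 3 libraries that stand apart, 17 with DESeq2 and 2 with GC and length offsets, of which HIST1H3H was among the 10.

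**Figure D4:**
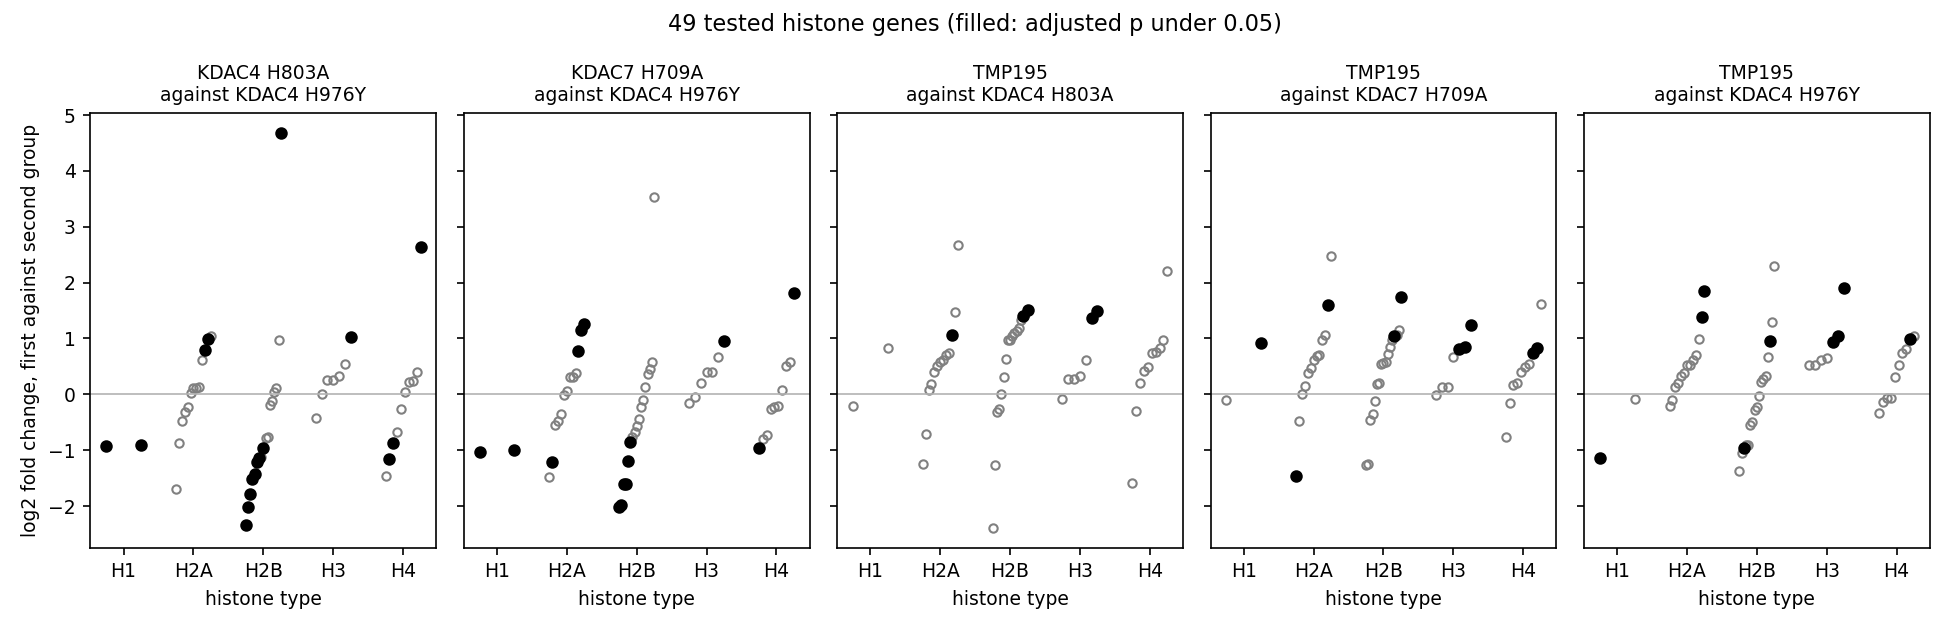
Log2 fold change of each of the 49 tested members by type in 5 comparisons, with filled points for members at an adjusted p under 0.05. Both H1 points and the filled H2B points other than HIST2H2BC lie below 0 where an inactive enzyme is set against KDAC4 H976Y.

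H2A and H2B genes often lie head to head and share a promoter region, so the 2 products of such a pair were compared within each library. Starts on opposite strands within 500 bases gave 11 pairs, of which 8 had both genes tested. The ratio of H2A to H2B counts was lower in all 4 KDAC4 H976Y libraries than in all 7 libraries of inactive enzymes for 5 of the 8 pairs, and higher for 0. How often ratios of other gene pairs separate in this way was not worked out. The 5 of 8 therefore cannot be read as particular to these pairs. HIST1H2AJ over HIST1H2BM was 0.564 to 0.732 in KDAC4 H976Y, 2.38 to 2.65 in KDAC4 H803A, 1.90 to 2.87 in KDAC7 H709A and 2.77 to 4.27 in TMP195. HIST2H2AC over HIST2H2BE was 0.223 to 0.265, 0.597 to 1.26, 0.522 to 0.980 and 0.954 to 1.82 in the same order. In both pairs KDAC4 H976Y lay below every other library. HIST1H2AJ shares 82.4% of its stretches of 75 bases with HIST1H2AI. HIST1H2AI over HIST1H2BL was 3.26 to 4.89 in KDAC4 H976Y and 1.71 to 5.49 in KDAC4 H803A. It was 1.54 to 3.77 in KDAC7 H709A and 1.56 to 2.12 in TMP195. The part of read sharing between HIST1H2AJ and HIST1H2AI was not tested. HIST3H2A over HIST3H2BB was 0.498 to 0.679 in KDAC4 H976Y, 2.44 to 2.95 in KDAC4 H803A, 1.96 to 3.35 in KDAC7 H709A and 0.690 to 0.997 in TMP195, so here TMP195 stood nearer to KDAC4 H976Y. The remaining 2 of the 5 were HIST1H2AC with HIST1H2BC and HIST1H2AG with HIST1H2BJ. For these the KDAC4 H976Y ratios were 0.712 to 0.849 and 1.46 to 1.59, against at least 0.884 and 2.31 with inactive enzymes. In TMP195 they were 0.711 to 0.922, overlapping KDAC4 H976Y, and 1.65 to 2.26, between the ranges of KDAC4 H976Y and the inactive enzymes.

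GC content differs within most of these pairs and moves with some of the ratios. It was 62.5% for HIST1H2AJ and 55.4% for HIST1H2BM, 62.8% for HIST2H2AC and 48.0% for HIST2H2BE, and 57.7% for HIST3H2A and 53.0% for HIST3H2BB, but 42.0% for HIST1H2AC and 51.2% for HIST1H2BC, where the H2A gene has the lower value. By type, the median GC of tested members was 61.7% for H2A, 60.6% for H3, 58.8% for H1, 52.2% for H2B and 52.1% for H4. The ratio of summed H2B to summed H3 counts was 1.53, 1.45, 1.57 and 1.41 in KDAC4 H976Y, 0.854, 0.397 and 0.474 in KDAC4 H803A, 0.541, 0.593, 0.762 and 0.907 in KDAC7 H709A, and 1.02, 0.880 and 0.766 in TMP195. All KDAC4 H976Y libraries lay above all others. Within the inactive groups the ratio was highest in KDAC4 H803A replicate 1 and KDAC7 H709A replicate 4, the libraries in which GC-rich genes stood lowest (-0.99 and -1.01). In KDAC4 H976Y this difference was -0.47 to -0.26. The part of GC content in the ratios was not tested beyond the offsets given above.

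**Figure D5:**
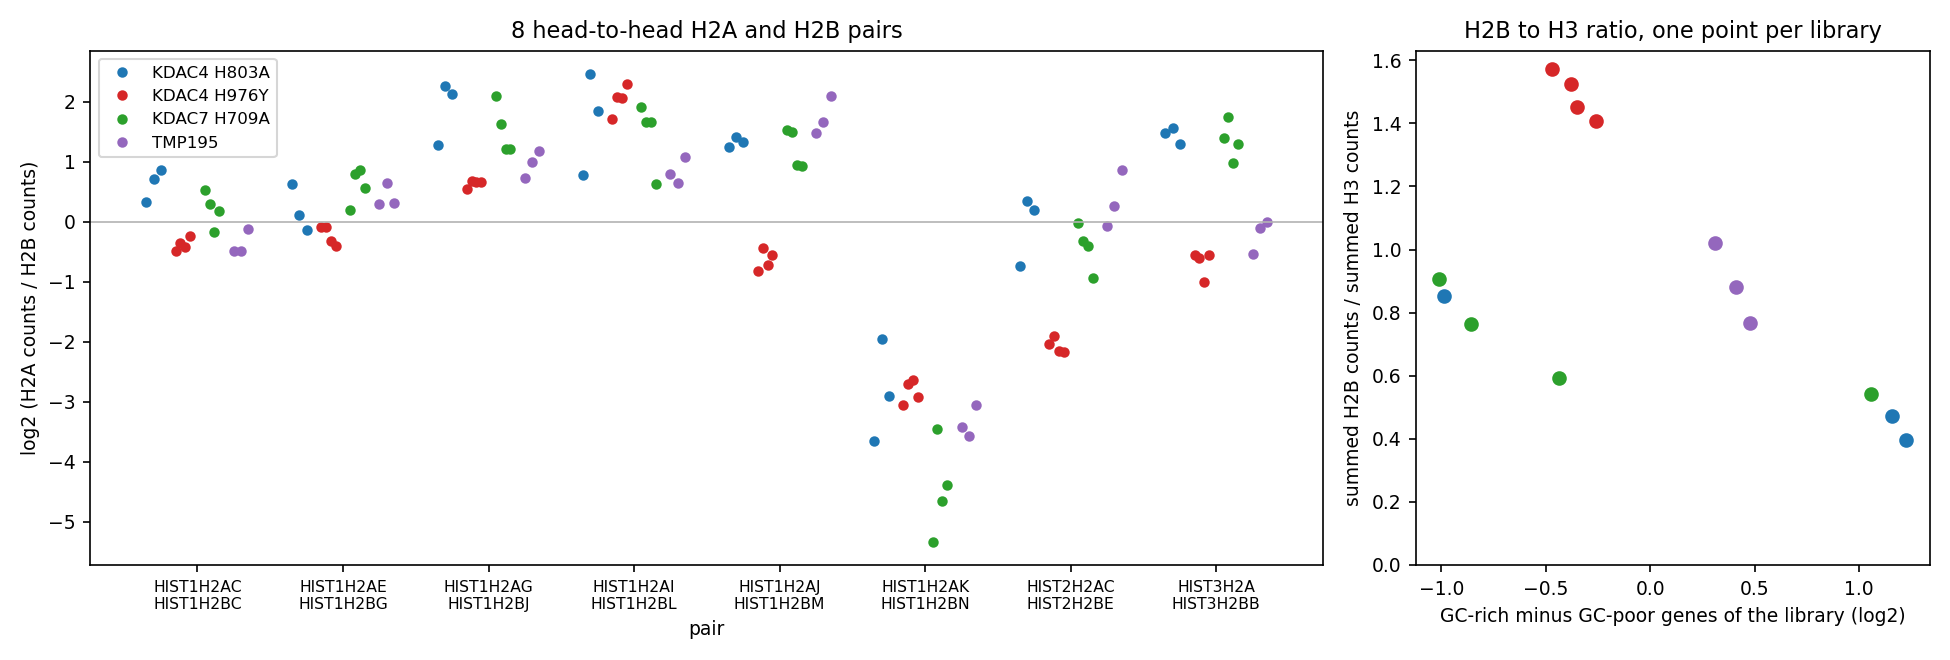
Left, log2 ratio of H2A to H2B counts in 8 head-to-head pairs, 1 point per library coloured by group; right, summed H2B over summed H3 counts against the difference of GC-rich and GC-poor genes in each library. KDAC4 H976Y lies lowest in 5 pairs against the inactive enzymes and highest in the right panel (1.41 to 1.57).

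Identical copies limit single-gene values on chromosome 1. On chromosome 6, HIST1H2AI and HIST1H2AJ share 60.1 and 82.4% of their stretches of 75 bases, and they were not summed. HIST2H3A and HIST2H3C had the same value in every library. HIST2H2AA3 gave 0, 142 and 81.1 CPM in KDAC4 H803A and HIST2H2AA4 721, 356 and 384, a division that changed between replicates while the sum was 721, 498 and 465. With copies summed, HIST2H2AA3 and HIST2H2AA4 together were not called in any of the 6 comparisons (adjusted p from 0.152 to 0.902), so the 2 calls of HIST2H2AA4 above rest on how reads were divided. HIST2H4A with HIST2H4B was still lower in KDAC4 H803A against KDAC4 H976Y (-0.88, adjusted p = 0.018) and in KDAC7 H709A against KDAC4 H976Y (-0.93, adjusted p = 0.00846).

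Genes that act in the transcription and processing of histone messengers were called in few cases. Of 20 such genes 19 were tested, and 0 were called higher and 1 lower in KDAC4 H803A against KDAC4 H976Y (CSTF2, a cleavage stimulation subunit, -0.72, adjusted p = 0.022), which is 5.26% against 15.1% of all genes. CSTF2 was also the 1 called in KDAC7 H709A against KDAC4 H976Y (-0.69, adjusted p = 0.018), or 5.26% against 12.5% of all genes. SLBP stood at 29.2 to 54.6 CPM in KDAC4 H976Y, 30.3 to 42.2 in KDAC4 H803A, 28.4 to 46.4 in KDAC7 H709A and 29.02 to 35.5 in TMP195. NPAT, in the same order of groups, stood at 43.5 to 50.9, 21.7 to 59.7, 21.4 to 63.9 and 38.8 to 44.4 CPM. CASP8AP2, a protein needed for histone transcription in S phase, stood at 33.6 to 39.5, 16.7 to 41.1, 32.4 to 43.4 and 23.6 to 28.6 CPM. None of the 3 was called in any comparison. ZNF473, a zinc finger protein of the U7 processing complex, was higher with TMP195 against KDAC4 H976Y (0.62, adjusted p = 0.016) and against KDAC7 H709A (0.77, adjusted p = 0.0088). CPSF2 was lower with TMP195 against KDAC4 H976Y (-1.18, adjusted p = 0.034). With TMP195, 2 of 19 were thus called against KDAC4 H976Y, where 16.5% of all genes were called. Against KDAC7 H709A it was 1 of 19, or 5.26% against 6.29% of all genes. Against KDAC4 H803A 0 of 19 were called, where 5.34% of all genes were, and between the inactive enzymes 0 of 19 were called. In no comparison was this list called more often than all genes.

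S-phase genes were called about as often as all genes in KDAC4 H803A against KDAC4 H976Y, 4 of 25 or 16% against 15.1%. The calls were 3 higher and 1 lower, among them MCM3 of the replicative helicase (0.71, adjusted p = 0.014), the licensing factor CDT1 (0.85, adjusted p = 0.016) and ORC1 of the origin recognition complex (-0.76, adjusted p = 0.043). Their median was -0.29. In KDAC7 H709A against KDAC4 H976Y 1 was higher, ORC6 (0.91, adjusted p = 0.007), with a median of -0.10 (4% against 12.5% of all genes). TMP195 against KDAC4 H976Y gave 3 higher and 0 lower, ORC6, MCM3 and CDT1 (1.31, 0.96 and 0.81), or 12% against 16.5% of all genes. The other 3 comparisons gave 0.

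Replacement histones, which are for the most part made outside S phase and polyadenylated, gave 1 higher and 1 lower of 11 in each comparison with KDAC4 H976Y, 18.2% against 15.1%, 12.5% and 16.5% of all genes. H2AFX, the H2A form marked at DNA breaks, stood at 66.3 to 82.6 CPM in KDAC4 H976Y, 107 to 163 in KDAC4 H803A, 109 to 166 in KDAC7 H709A and 108 to 129 in TMP195. KDAC4 H976Y lay below all others (0.94, 0.88 and 0.63 against it, adjusted p = 0.0072, 0.0064 and 0.04). H2AFZ was lower in KDAC4 H803A (-0.84, adjusted p = 0.039), and H2AFJ was lower in KDAC7 H709A (-1.39, adjusted p = 0.0024) and TMP195 (-1.13, adjusted p = 0.011), all against KDAC4 H976Y. The other 3 comparisons gave 0. Of 16 histone chaperones, HIRA was higher in KDAC4 H803A against KDAC4 H976Y (0.57, adjusted p = 0.045), and ATRX was lower with TMP195 against all 3 variant groups (-1.07, -0.80 and -1.08, adjusted p = 0.003, 0.0068 and 0.0017). Each is 6.25% of the chaperones, against 15.1% of all genes for HIRA and 5.34, 16.5 and 6.29% for ATRX against KDAC4 H803A, KDAC4 H976Y and KDAC7 H709A.

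Other genes around the clusters were examined beside the histone genes. Of 11 tested non-histone neighbours on chromosome 6, HMGN4 and HFE were lower in KDAC4 H803A against KDAC4 H976Y (-0.79 and -1.23), and HMGN4 in KDAC7 H709A against it (-0.65). Of 10 on chromosome 1, SV2A and APH1A were lower in both (-0.79 and -0.86, then -0.79 and -0.75), and BOLA1 in KDAC7 H709A (-1.74) and TMP195 (-1.01) against KDAC4 H976Y. The remaining comparisons of both lists gave 0 calls. These were 18.2 and 9.09% of the chromosome 6 list and 20 and 30% of the chromosome 1 list, against 15.1 and 12.5% of all genes, for KDAC4 H803A and KDAC7 H709A, and 10% of the chromosome 1 list against 16.5% for TMP195. The 15 listed small RNAs that, like most histone messengers, have no poly(A) tail summed to 56852 to 70427 CPM in KDAC4 H976Y and to 16392 to 50662 elsewhere. RMRP stood at 2540 to 3284 CPM there, 15.6 to 104 in KDAC4 H803A, 14.5 to 75.5 in KDAC7 H709A and 323 to 379 in TMP195. RPPH1 stood at 740.3 to 1331, 16.2 to 161, 17.3 to 204 and 597 to 940 CPM in that order. Of 8 such RNAs tested, 3 were lower in KDAC4 H803A and 4 in KDAC7 H709A against KDAC4 H976Y, and 2 with TMP195, or 37.5, 50 and 25% against 15.1, 12.5 and 16.5% of all genes. Against KDAC4 H803A and KDAC7 H709A, 1 and 2 were higher with TMP195 (12.5 and 25% against 5.34 and 6.29%). The part of these RNAs in the histone differences was not tested. Of the 6 members known to give polyadenylated transcripts, 3 were lower and 0 higher in each comparison of an inactive enzyme with KDAC4 H976Y, with medians of -0.84 and -0.71. Of the other 43 tested members 9 and 7 were lower and 5 were higher in each, and of all genes 5.85 and 5.19% were lower. With TMP195, 1 of the 6 was higher against KDAC4 H803A (16.7% called against 5.34% of all genes). Against KDAC7 H709A 2 were higher (33.3% against 6.29%), and against KDAC4 H976Y 1 was lower (16.7% against 16.5%).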

How the data were processed

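RNA was measured in HT1080 cells as 14 count libraries in 4 groups. The deposited values are expected counts per gene in a single table made by the authors, in which reads are shared among matching transcripts. Per the submitters' processing notes, Trimmomatic 0.39, Bowtie2 2.4.5, RSEM 1.3.3, DESeq2 1.38.2 and the build GRCh38 were used. For the annotation release and strand setting, nothing is given in the sources used here. The column named for KDAC4 H803A replicate 4 equals the transcript length minus 248.86 bases for 7363 of 7608 genes with 1 transcript (96.8%), so it was read as effective lengths and left out as a sample. In the other columns such a fixed difference fitted at most 0.237% of genes. All other columns were mapped to samples by name, and 0 were left unmapped.

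Expected counts were rounded. Genes were filtered by filterByExpr (minimum count 10, minimum total 15), which left 17780, and scaled by TMM. All 14 libraries entered 1 edgeR 4.0.16 quasi-likelihood fit (limma 3.58.1, R 4.3.3), two-sided, with Benjamini-Hochberg adjustment over all genes and a threshold of 0.05. SE is the absolute log2 fold change over the square root of F. The scripts were tested on simulated data with known changes. There the spread between replicates was set lower than in these data, and no library stood apart. That test therefore gives no error rate for these data. Annotation and transcripts are from GENCODE v29, which matched 57055 rows, and promoters from RefSeq (GRCh38.p14). The members and gene lists were chosen with earlier results of these data known. Members named are those called (up to 12 a direction), the 3 highest of each type per length and, from each list, up to 3 called genes with the lowest adjusted p, with SLBP, NPAT and CASP8AP2 always. Alternatives were RLE scaling, DESeq2 1.42.0, no filter, only the 2 groups compared, a block on replicate number, offsets for GC content and length, library sizes without mitochondrial, ribosomal and small RNA rows, summed copies, annotated lengths, and left-out libraries.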

Additional observations from a re-analysis of the deposited data

Results flagged for a closer look

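Among 72 groups of 4 libraries checked for a library far from the rest, 3 held one, and chance alone gives about 1 in 20. HIST1H1T, an H1 gene known from testis, was at 0.676 CPM in KDAC7 H709A replicate 1 and at 0 to 0.0626 CPM in the other 3 libraries of the group. HIST1H4J was at 49.4 CPM in KDAC4 H976Y replicate 4 and at 78.4 to 83.1 CPM in the others. That library was also the lowest of its group in the sum of all 76 genes (3526 against 4974 to 5565 CPM). Its low value is therefore not particular to HIST1H4J. HIST2H2BC was at 1.85 CPM in KDAC4 H976Y replicate 4 and at 0 in the others.

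Among the 13 pseudogenes left out by name, HIST2H3PS2 had 594 counts over the 14 libraries and was above 0 in each, above the limit of 3 counts that a total of 0 allows. It stood at 1.09 to 5.36 CPM, with group means of 3.76 ± 1.85 (SD, n = 3) in KDAC4 H803A, 4.28 ± 1.26 (n = 4) in KDAC4 H976Y, 2.76 ± 1.32 (n = 4) in KDAC7 H709A and 4.17 ± 0.635 (n = 3) in TMP195.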

How the results depend on the processing

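Depth of 4.86 to 23.9 counts per CPM limits members near 1 CPM. No call of a named member reversed, but medians by type did change sign. With GC and length offsets 4 of 30 did: H3 in KDAC4 H803A against KDAC4 H976Y (0.26 to -0.18), H2A in TMP195 against KDAC7 H709A (0.62 to -0.12), and H4 and H1 in KDAC7 H709A against KDAC4 H803A (-0.05 to 0.08 and -0.10 to 0.14). Without the 3 libraries that stand apart 3 did: H2A in KDAC4 H803A against KDAC4 H976Y (0.12 to -0.08), and H3 and H4 in KDAC7 H709A against KDAC4 H803A (0.14 to -0.23 and -0.05 to 0.0033). With DESeq2 0 did. Of 56 calls of named members, 8 held under every alternative: HIST3H2BB and HIST2H2BB with either inactive enzyme against KDAC4 H976Y, HIST1H4I with KDAC4 H803A against it, HIST1H1E with TMP195 against it, and HIST1H3H with TMP195 against KDAC4 H803A and KDAC4 H976Y. Counts of members called that moved beyond 1.5 times follow, and where no cause is named it was not tested. Shares of all genes called were worked out for the main fit only. Counts in the other settings, here and above, therefore cannot be set against all genes. Against KDAC4 H976Y, KDAC4 H803A gave 17, and 8 with the replicate block, 6 with GC and length offsets and the block, and 31 without the 3 libraries that stand apart. KDAC7 H709A gave 15, and 7 with the offsets, 4 with offsets and block, and 27 without the 3. KDAC7 H709A against KDAC4 H803A gave 0, and 25 without the 3. TMP195 against KDAC4 H803A gave 5, and 2 with no filter, 3 with only the 2 groups, 2 with the block, 3 with the offsets, 2 with both, 31 without the 3 and 17 with DESeq2. TMP195 against KDAC4 H976Y gave 9, 7 higher and 2 lower, which turned to 3 higher and 4 lower with the offsets, and 27 with only the 2 groups, 5 with offsets and block, 26 without the 3 and 16 with DESeq2. TMP195 against KDAC7 H709A gave 10, and 3 with no filter, 2 with only the 2 groups, 2 with the block, 2 with the offsets, 0 with both (against a main count of 10), 27 without the 3 and 17 with DESeq2. Leaving out 1 library gave 7 to 23, 9 to 18, 0 to 7, 2 to 17, 6 to 14 and 1 to 19 calls in this order. Same-numbered libraries of different groups did not pair (correlations of their deviations from -0.66 to 0.32). Under the replicate block 27 of the 56 calls of named members were lost, and why was not tested. Ratios of the highest to the lowest group mean of the type sums stayed within 1 SD under other scalings, and ranged from 1.89 to 2.27 for H1, 1.33 to 1.55 for H2A, 1.75 to 2.56 for H2B, 1.56 to 1.79 for H3 and 1.384 to 1.62 for H4 with 1 library left out.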
